A study of Homo sapiens with 6 samples.

Results

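The genes described here encode the SR proteins and the hnRNP proteins, the main sequence-reading families of pre-mRNA splicing. The families were picked with earlier results of these data known. Membership was then set by name: every row of the deposited gene table with an SRSF symbol followed by a number, or an HNRNP symbol. Symbols of pseudogenes were left out. That gave 38 genes of the 78932 in the table, of which 12 were SR genes and 26 were hnRNP genes. RNA was measured by poly(A)-selected RNA-seq in T24, an established human urothelial carcinoma cell line, in 3 cultures transfected with a control siRNA (siNC) and 3 transfected with siRNA against TRIM28 (siTRIM28). Both groups were the same unmodified line, handled with the same transfection reagent and labelled as biological replicates of 1 batch. Which TRIM28 siRNA the sequenced cultures received, and how long after transfection they were collected, are not given in the sources used here, so loss of TRIM28 and any other effect of the siRNA cannot be told apart.

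SR proteins bind short exonic sequences through RNA recognition motifs and, through a tail rich in arginine and serine, recruit the splicing machinery, so that the bound exon is usually kept. The hnRNP proteins coat nascent transcripts and often act the other way, silencing splice sites, besides roles in mRNA stability and export. Many genes of both families tune their own output by splicing in a so-called poison exon or an intron of the 3′ end, which sends the transcript to nonsense-mediated decay (NMD). TRIM28, also called KAP1, is a co-repressor that KRAB zinc finger proteins bring to chromatin, and has SUMO ligase activity.

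Counts per library lay between 12989362 and 13942383 in siNC and between 11712623 and 14018052 in siTRIM28. TRIM28 itself had 1419, 1393 and 1382 counts in siNC and 130, 96 and 109 in siTRIM28, a log2 fold change of -3.54 (SE 0.0723, adjusted p = 1.03e-10). Libraries siNC 1 and 2 were close to each other, with a chi-square per degree of freedom of 1.08 over genes, against 4.17 and 4.22 for the pairs with siNC 3. Likewise siTRIM28 2 and 3 stood at 1.22, against 6.25 and 5.65 for the pairs with siTRIM28 1. Both close pairs still differed slightly more than by counting noise and were kept as separate cultures, as labelled. Whether the libraries of a pair came from independent cultures cannot be told from the counts. Library siTRIM28 1 is the one named most often below as standing apart. Of 7 epithelial markers KRT8, KRT18 and, weakly, KRT7 were expressed, whereas CDH1, EPCAM, KRT19 and KRT5 had at most 10 counts in any library. Of 7 urothelial markers only UPK1A and PPARG had more than 10 counts in any library, and KRT20 and UPK1B were at 0. KRT8 (log2 fold change 0.14, adjusted p = 0.0354) and KRT7 (0.56, adjusted p = 0.0126) were called higher in siTRIM28, as were UPK1A and the fibroblast marker COL1A1 at low counts, and the 4 fibroblast markers summed to between 0.784 and 1.44 CPM in siNC and between 2.64 and 3.97 CPM in siTRIM28. The endothelial markers summed to at most 1.01 CPM, with CDH5 at 0. Of 5 leukocyte markers only CD68 passed 10 counts, and CD3E was at 0. Through CD68 that list summed to between 345 and 350 CPM in siNC and between 338 and 361 CPM in siTRIM28. The epithelial list summed to less, between 189 and 197 CPM in siNC and between 207 and 215 CPM in siTRIM28. The part of these markers in the results was not tested. As a bulk measurement of cultures, the data cannot tell fewer cells with a transcript from less of it per cell.

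Of the 38 genes, 35 reached 10 or more counts in no fewer than 3 libraries of the 6 and were tested, 11 of the 12 SR genes and 24 of the 26 hnRNP genes. After TRIM28 silencing 20 of the 35 changed (edgeR's quasi-likelihood test, Benjamini-Hochberg adjusted p under 0.05 over all 18474 genes tested), 10 upward and 10 downward. That is 57.1% of those tested, beside 41.8% of all genes, with 28.6% in each direction beside 21.3% higher and 20.5% lower among all genes. Well-measured genes were called more often. Among genes with a mean of at least 1000 counts, a split made after the values were seen, 16 of 26 members were called (61.5%), 9 higher and 7 lower, beside 59.7% of all such genes, 27.9% higher and 31.8% lower. The share called was thus near the background for genes of that abundance. The siNC and siTRIM28 libraries did not overlap for 26 of the 35 genes, 13 in each direction, where 52% of all genes tested had groups that did not overlap. The 52% and the all-gene shares that follow cover genes of all counts and were not computed for abundant genes alone. With siNC 3 and siTRIM28 1 left out, an alternative added after the data were seen, 10 members rose and 12 fell, 62.9% of the 35 beside 44.5% of all genes in that fit. With each close pair summed into 1 library, likewise added, 7 rose and 8 fell, 42.9% beside 32.1%.

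The changes were small. Among the called genes the absolute log2 fold change ran from 0.10 to 0.64 for those that rose and from 0.13 to 1.15 for those that fell, and an absolute value of 0.58 was passed by 2 of 35 members, SRSF5 and SRSF8, against 17% of all genes tested that were called and passed it. By family, 5 SR genes rose and 2 fell (45.5% and 18.2% of the 11 tested), with a median log2 fold change of 0.15. Of the 24 hnRNP genes tested 5 rose and 8 fell (20.8% and 33.3%), with a median of -0.05. Among all genes 21.3% rose and 20.5% fell, with a median of 0.02. Among genes with a mean of at least 1000 counts 27.9% rose and 31.8% fell, so the share of hnRNP genes that fell was near that of abundant genes. These medians are descriptions of the lists, and the difference between them was not tested.

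**Figure D1:**
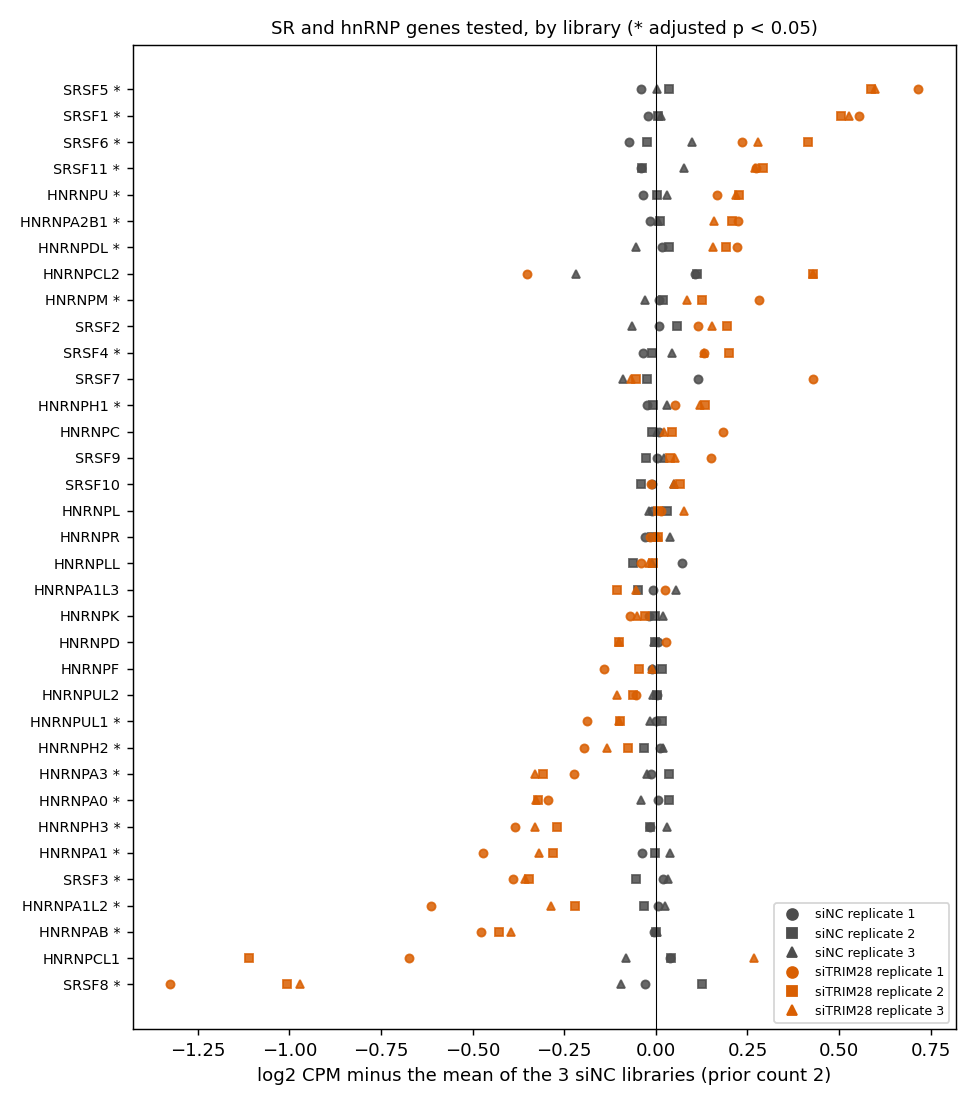
Each point is the log2 CPM of 1 gene in 1 library minus the mean of the 3 siNC libraries (prior count 2), with siNC in grey and siTRIM28 in orange, a marker shape for each replicate, and an asterisk for an adjusted p under 0.05. From SRSF5 at the top to SRSF8 at the bottom the siTRIM28 libraries move from above to below the siNC libraries, and SRSF7, HNRNPCL1 and HNRNPCL2 spread most within siTRIM28.

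Promoter sequences are shown for the genes with the largest called rise and fall among those with at least 1000 counts on average, SRSF5 and SRSF1 for the rise and HNRNPAB and SRSF3 for the fall. They are the 250 bases before the RefSeq start (build GRCh38.p14), written 5′ to 3′ on the gene's own strand. SRSF5 stands at chr14:69766892-69767141 on the plus strand, inside the span the deposited table gives for the gene. SRSF1 stands at chr17:58007247-58007496 on the minus strand. HNRNPAB stands at chr5:178204283-178204532 and SRSF3 at chr6:36594112-36594361, both on the plus strand. Capitals mark matches, on either strand, to any of 5 motifs: the E-box CACGTG, the ETS core CCGGAAG, the CCAAT box CCAAT, the TATA box TATAAA and the cAMP response element TGACGTCA.
SRSF5: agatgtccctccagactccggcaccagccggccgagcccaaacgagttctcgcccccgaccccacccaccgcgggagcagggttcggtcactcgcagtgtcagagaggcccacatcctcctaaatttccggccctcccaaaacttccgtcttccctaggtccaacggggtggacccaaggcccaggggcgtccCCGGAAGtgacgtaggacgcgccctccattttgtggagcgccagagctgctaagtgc
SRSF1: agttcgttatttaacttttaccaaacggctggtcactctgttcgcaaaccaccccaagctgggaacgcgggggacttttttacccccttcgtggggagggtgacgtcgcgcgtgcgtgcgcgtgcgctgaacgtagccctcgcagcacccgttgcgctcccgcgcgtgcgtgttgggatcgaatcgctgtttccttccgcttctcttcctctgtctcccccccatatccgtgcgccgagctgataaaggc
HNRNPAB: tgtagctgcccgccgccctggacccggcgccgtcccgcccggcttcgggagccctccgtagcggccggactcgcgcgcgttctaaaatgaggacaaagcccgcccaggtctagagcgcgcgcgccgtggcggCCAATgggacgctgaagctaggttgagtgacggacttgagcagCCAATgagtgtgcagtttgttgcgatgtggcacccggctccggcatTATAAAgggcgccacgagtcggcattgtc
SRSF3: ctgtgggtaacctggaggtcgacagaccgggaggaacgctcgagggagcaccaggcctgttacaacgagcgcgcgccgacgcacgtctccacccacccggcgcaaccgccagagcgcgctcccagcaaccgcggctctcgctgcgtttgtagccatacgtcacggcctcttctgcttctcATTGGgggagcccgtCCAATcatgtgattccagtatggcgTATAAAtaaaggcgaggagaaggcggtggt

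The falling pair, HNRNPAB and SRSF3, each held a pair of CCAAT boxes and a TATA box, where SRSF5 held an ETS core and SRSF1 held none of the 5 motifs. Over the 34 members with a RefSeq promoter, searched in the window from 250 bases before to 50 bases after the start, 17 held a CCAAT box (50%, beside 34.6% of all 35116 promoters). These were 7 of the 9 fallen genes with a promoter, 2 of the 10 that rose and 8 of the 13 with no call. An E-box was found in 7 members (20.6%, beside 7.26% of all), HNRNPA3, HNRNPD, HNRNPDL, HNRNPH2, HNRNPH3, HNRNPM and HNRNPUL1, 4 of which fell and 2 of which rose. The ETS core was in 5 (14.7%, beside 10.3%) and the TATA box in 5 (14.7%, beside 11.5%). The cAMP response element was in none of the 34, beside 1.85% of all promoters. A match says only that these letters stand in the window, and promoters of HNRNPA1, HNRNPA1L3, HNRNPCL3 and SRSF2 were not matched in the RefSeq table.

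Among the 8 core SR genes, whose proteins start with an RNA recognition motif and end in the arginine-serine tail, 4 rose, 1 fell and 3 had no call. SRSF5 (chr14:69726900-69772005), which binds purine-rich exonic enhancers, had 225, 238 and 232 CPM (counts scaled to a common library size after TMM, a correction for library composition) in siNC 1, 2 and 3. In siTRIM28 1, 2 and 3 it had 381, 348 and 351 CPM. All siTRIM28 libraries were above all siNC libraries, and the highest value was in siTRIM28 1. The mean rose from 232 ± 6.27 to 360 ± 18.0 CPM (SD, n = 3), a log2 fold change of 0.64 (SE 0.0457, adjusted p = 7.96e-07).

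SRSF1 (chr17:58000919-58007273), the prototype of the family and a known oncogene product, had 224, 228 and 229 CPM in siNC and 334, 322 and 327 CPM in siTRIM28. Both groups were tight and stood clear of each other. The log2 fold change was 0.53 (SE 0.0378, adjusted p = 7.45e-07), or 44.3% more on the CPM scale. ENSG00000266086, annotated on the same strand and overlapping SRSF1, had 94.8% as many counts on average and a log2 fold change of 0.56, and how reads shared by both were assigned is not known.

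SRSF6, a regulator of exon choice in wound healing and tau transcripts, had 61.3, 63.4 and 69.0 CPM in siNC and 75.9, 86.1 and 78.3 CPM in siTRIM28. The groups did not overlap, but the siTRIM28 libraries spread more widely than for SRSF1. The log2 fold change was 0.31 (SE 0.0648, adjusted p = 0.00235). A gene overlapping it on the same strand, ENSG00000288000, had 65.8% as many counts and a log2 fold change of 0.28. ENSG00000295152, on the opposite strand, had 45.2% as many and was also called higher (log2 fold change 0.39). SRSF4 rose least of the 4, from 515 ± 14.1 to 572 ± 15.8 CPM (SD, n = 3; log2 fold change 0.15, SE 0.0386, adjusted p = 0.00747), and this call was lost without siNC 1.

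SRSF3 (chr6:36594353-36605600), the smallest SR protein and a promoter of proliferation in many cell types, was the core SR gene that fell. It had 156, 148 and 157 CPM in siNC and 117, 121 and 120 CPM in siTRIM28. Every siTRIM28 library lay below every siNC library, with little spread in either group. The log2 fold change was -0.36 (SE 0.0437, adjusted p = 4.35e-05).

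SRSF2, SRSF7 and SRSF9 had no call. SRSF2, which binds both purine-rich and pyrimidine-rich enhancers, was nearest to the threshold of these, with 31.6, 32.7 and 30.0 CPM in siNC and 34.1, 36.0 and 35.0 CPM in siTRIM28. The groups did not overlap, yet the log2 fold change of 0.15 had an adjusted p of 0.0690 (SE 0.0623), and it passed the threshold without siTRIM28 1. SRSF9, a paralog of SRSF1, had a log2 fold change of 0.08 (adjusted p = 0.164). DYNLL1 overlaps SRSF9 on the opposite strand with 205% as many counts (log2 fold change 0.10). MFSD11 overlaps SRSF2 likewise with 60.8% (0.03), and the strand setting of the counting is not known. SRSF7, a paralog of SRSF3 that carries a zinc knuckle, had 122, 111 and 106 CPM in siNC and 152, 109 and 108 CPM in siTRIM28. Only siTRIM28 1 was high, and the log2 fold change of 0.12 (adjusted p = 0.425) became -0.06 without that library.

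Of the other SR genes, SRSF11, an SR-like protein first described as p54, had the highest count of the family. It had 1012, 1015 and 1099 CPM in siNC and 1259, 1275 and 1255 CPM in siTRIM28, with no overlap and with siNC 3 the highest of its group (log2 fold change 0.28, SE 0.0392, adjusted p = 1.58e-04). SRSF8, a retrocopy-derived relative of SRSF2, changed most of all 35 genes in log2 terms but is weakly expressed. Its counts were 88, 98 and 77 in siNC and 35, 37 and 38 in siTRIM28, or 6.48 ± 0.536 against 2.94 ± 0.388 CPM (SD, n = 3). The groups lay far apart for so few counts (log2 fold change -1.15, SE 0.159, adjusted p = 1.34e-04). SRSF10, which turns into a repressor when dephosphorylated, had a log2 fold change of 0.03 (adjusted p = 0.566). SRSF12 had 0 counts in the siNC libraries and 1, 0 and 0 in siTRIM28, where a count of 0 allows up to between 0.214 and 0.253 CPM in a library, so no change could be measured at this depth.

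**Figure D2:**
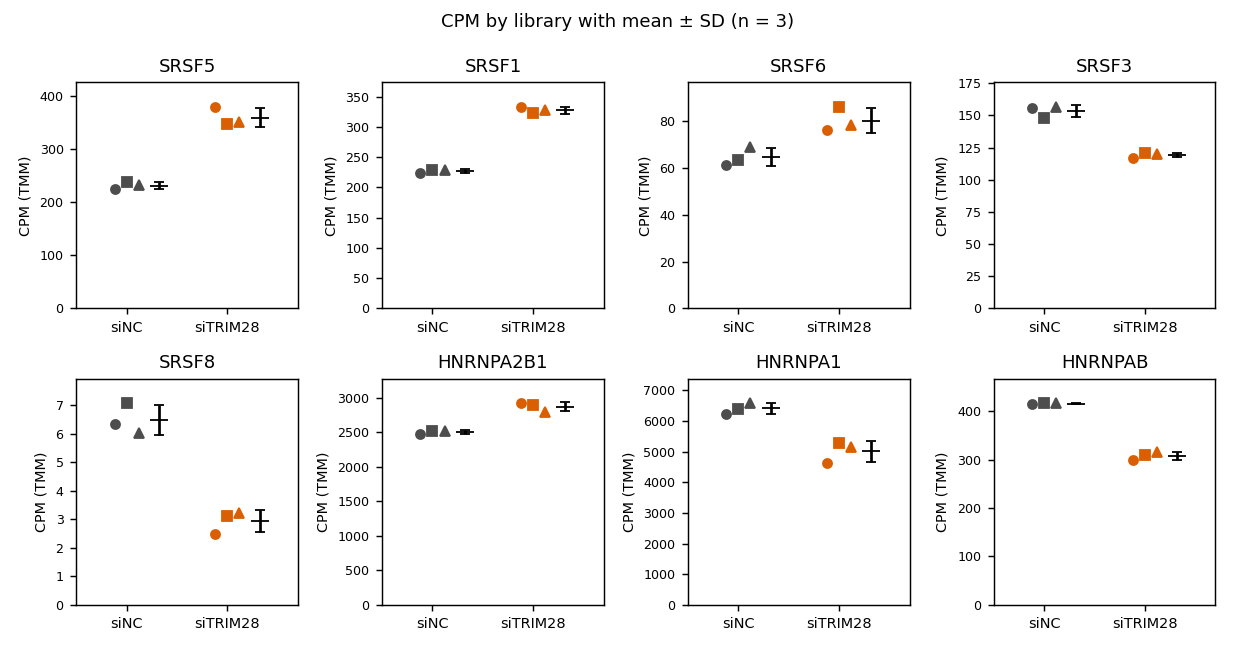
CPM after TMM scaling of 8 genes in each library, with siNC in grey and siTRIM28 in orange, each axis starting at 0, and the mean with its SD (n = 3) as a bar beside the points. SRSF5, SRSF1, SRSF6 and HNRNPA2B1 lie higher in all 3 siTRIM28 libraries, and SRSF3, SRSF8, HNRNPA1 and HNRNPAB lie lower in all 3.

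Of the 7 hnRNP A/B genes, whose proteins carry paired RNA recognition motifs and classically oppose SR proteins in splice site choice, 5 fell, 1 rose and 1 had no call. The median log2 fold change was -0.32. HNRNPA1 (chr12:54280193-54287087), the most abundant of all 38 transcripts, had 6241, 6396 and 6587 CPM in siNC and 4622, 5272 and 5135 CPM in siTRIM28. The groups were well apart, and siTRIM28 1 was the lowest. The mean fell by 21.8% on the CPM scale, a log2 fold change of -0.36 (SE 0.0462, adjusted p = 8.21e-05). HNRNPA1 held 29.02%, 29.32% and 29.79% of the counts of all 38 genes in siNC and 22.03%, 24.56% and 24.37% in siTRIM28.

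HNRNPAB (chr5:178204533-178211149), which also binds single-stranded DNA, had 414, 417 and 417 CPM in siNC and 299, 309 and 316 CPM in siTRIM28. The siNC libraries were almost identical, and all siTRIM28 libraries lay well below them. Its log2 fold change of -0.43 (SE 0.0378, adjusted p = 3.62e-06) was the largest fall of a well-expressed member. HNRNPA0, an intronless member that stabilizes stress-induced mRNAs, had 43.9, 44.9 and 42.5 CPM in siNC and 35.6, 35.0 and 34.8 CPM in siTRIM28. The groups did not overlap (log2 fold change -0.32, SE 0.0579, adjusted p = 9.79e-04).

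HNRNPA3, a protein of RNA trafficking granules, fell from 1004 ± 22.3 to 823 ± 32.4 CPM (SD, n = 3; log2 fold change -0.29, SE 0.0389, adjusted p = 1.15e-04). NFE2L2, which overlaps it on the opposite strand with 37.7% as many counts, also fell (log2 fold change -0.21), and the strand setting of the counting is not known. HNRNPA1L2, a retrocopy close in sequence to HNRNPA1, had 44.0, 42.8 and 44.6 CPM in siNC and 28.6, 37.6 and 35.9 CPM in siTRIM28. All siTRIM28 libraries were lower, siTRIM28 1 most (log2 fold change -0.37, SE 0.0904, adjusted p = 0.00638), and reads of HNRNPA1 and its copies cannot be fully separated. ENSG00000273784, which overlaps HNRNPA1L2 on the same strand, had 147% as many counts and was also called lower (log2 fold change -0.28). Another copy, HNRNPA1L3, had a log2 fold change of -0.04 (adjusted p = 0.556).

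HNRNPA2B1 (chr7:26171151-26200746), which has been linked to the sorting of RNAs into exosomes and to methylated adenosine sites, was the A/B gene that rose. It had 2477, 2524 and 2516 CPM in siNC and 2926, 2896 and 2797 CPM in siTRIM28. Every siTRIM28 library was above every siNC library (log2 fold change 0.20, SE 0.0321, adjusted p = 4.33e-04). HNRNPA1 and HNRNPA2B1, the core A/B pair of the hnRNP particle, thus moved in opposite directions in the same libraries.

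Of the 4 F/H genes, whose proteins bind runs of guanines, HNRNPH3 fell most. It had 661, 661 and 683 CPM in siNC and 512, 554 and 531 CPM in siTRIM28, with no overlap (log2 fold change -0.33, SE 0.0397, adjusted p = 4.83e-05). RUFY2, on the opposite strand and overlapping HNRNPH3 with 17.1% as many counts, had a log2 fold change of -0.39. HNRNPH2 was slightly lower (log2 fold change -0.13, adjusted p = 0.0293) and HNRNPH1 slightly higher (0.10, adjusted p = 0.0421). Both calls were lost in leave-one-out fits, and the read-through gene RPL36A-HNRNPH2, which shares the strand and span of HNRNPH2, had more counts than HNRNPH2 did and a log2 fold change of -0.21. HNRNPF, the fourth, had a log2 fold change of -0.07 (adjusted p = 0.242).

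HNRNPU, the scaffold attachment factor that binds chromatin-associated RNA, had 1052, 1081 and 1102 CPM in siNC and 1211, 1263 and 1256 CPM in siTRIM28. The groups did not overlap (log2 fold change 0.21, SE 0.0352, adjusted p = 6.26e-04). ENSG00000273175 and COX20 overlap HNRNPU on the opposite strand, with 38.7% and 5.74% as many counts. Both were called higher too (log2 fold change 0.15 and 0.61). HNRNPUL1, a relative of HNRNPU, fell slightly, from 366 ± 4.18 to 335 ± 11.8 CPM (SD, n = 3; log2 fold change -0.13, adjusted p = 0.0221), a call that was lost without siNC 1 or siNC 2. HNRNPUL2 had 408, 408 and 404 CPM in siNC and 392, 390 and 378 CPM in siTRIM28, lower in all 3 but without a call (log2 fold change -0.07, SE 0.0361, adjusted p = 0.129). It passed the threshold without siTRIM28 1, in a fit that leaves the close pair siTRIM28 2 and 3. The read-through HNRNPUL2-BSCL2 had 94.8% as many counts as HNRNPUL2. TGFB1 overlaps HNRNPUL1 on the opposite strand with 35.4% as many counts (log2 fold change -0.01).

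HNRNPDL, whose protein stays near HNRNPD in sequence and binds AU-rich elements, rose from 439 ± 14.1 to 501 ± 11.2 CPM (SD, n = 3; log2 fold change 0.19, SE 0.0392, adjusted p = 0.00230). HNRNPD, also known as AUF1, a factor in AU-rich mRNA decay, had 770, 767 and 765 CPM in siNC and 782, 715 and 715 CPM in siTRIM28. The groups overlapped through siTRIM28 1 (log2 fold change -0.06, adjusted p = 0.301). Without that library the gene was called at -0.10, in a fit that leaves the close pair siTRIM28 2 and 3. HNRNPM, a regulator of exon choice in epithelial-mesenchymal transition, rose from 896 ± 16.0 to 1006 ± 73.5 CPM (SD, n = 3; log2 fold change 0.17, SE 0.0486, adjusted p = 0.0159). This call was lost without siNC 1 or siNC 3, and with each close pair summed. The siTRIM28 1 value of HNRNPM, 1089 CPM, stood above the 979 and 950 CPM of siTRIM28 2 and 3. Without siTRIM28 1 the log2 fold change was 0.11, in a fit that leaves the close pair siTRIM28 2 and 3. ENSG00000279827 overlaps HNRNPM on the opposite strand with 32.9% as many counts (log2 fold change 0.29, without a call).

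The remaining hnRNP genes had no call, which at changes this small does not show that they did not differ. HNRNPC, the protein that measures transcript length and binds uridine tracts, had 1018, 1005 and 1014 CPM in siNC and 1149, 1045 and 1028 CPM in siTRIM28. All siTRIM28 libraries were higher, mostly through siTRIM28 1 (log2 fold change 0.09, SE 0.0435, adjusted p = 0.139). HNRNPK, which binds cytidine-rich sequence through KH domains, had 752, 761 and 773 CPM in siNC and 726, 746 and 736 CPM in siTRIM28 (log2 fold change -0.05, adjusted p = 0.264). Its siTRIM28 libraries were all lower, but the gap between the groups was smaller than the range within each. HNRNPL, HNRNPLL and HNRNPR had log2 fold changes between -0.02 and 0.03, with adjusted p between 0.559 and 0.978. HNRNPCL1 and HNRNPCL2, copies of HNRNPC, had at most 14 counts in a library and log2 fold changes of -0.52 (SE 0.420) and 0.19 (SE 0.324). HNRNPCL3 and HNRNPCL4 had at most 1 and 3 counts in a library and were not tested.

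Per length, levels of different genes can be set side by side only roughly, since the deposited length covers nearly the whole gene for some members. It was 22512 bases for HNRNPU (chr1:244840638-244864091) and 6697 bases for HNRNPA1 (chr12:54280193-54287087). A level may thus be understated by an amount that differs between genes. On this scale HNRNPA1 led with 957 ± 25.9 RPKM (reads per kilobase of deposited length on the CPM scale, SD, n = 3) in siNC, the rank of 47 among 18474 genes. HNRNPA2B1 followed with 199 ± 2.00 RPKM and HNRNPAB with 196 ± 0.684 RPKM, which did not differ beyond their spread in siNC. In siTRIM28 they stood apart, at 228 ± 5.37 and 146 ± 4.08 RPKM. SRSF11 was the highest SR gene at 123 ± 5.84 RPKM, followed by SRSF4 at 58.4 ± 1.60, SRSF5 at 43.3 ± 1.17, SRSF9 at 42.6 ± 0.712 and SRSF1 at 39.3 ± 0.476 RPKM. After silencing SRSF5 reached 67.2 ± 3.37 and SRSF1 56.7 ± 0.989 RPKM, both above SRSF9 at 45.0 ± 1.94 RPKM. The lowest of the genes tested were SRSF8, at 1.51 ± 0.125 RPKM in siNC, HNRNPCL2 and HNRNPCL1.

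**Figure D3:**
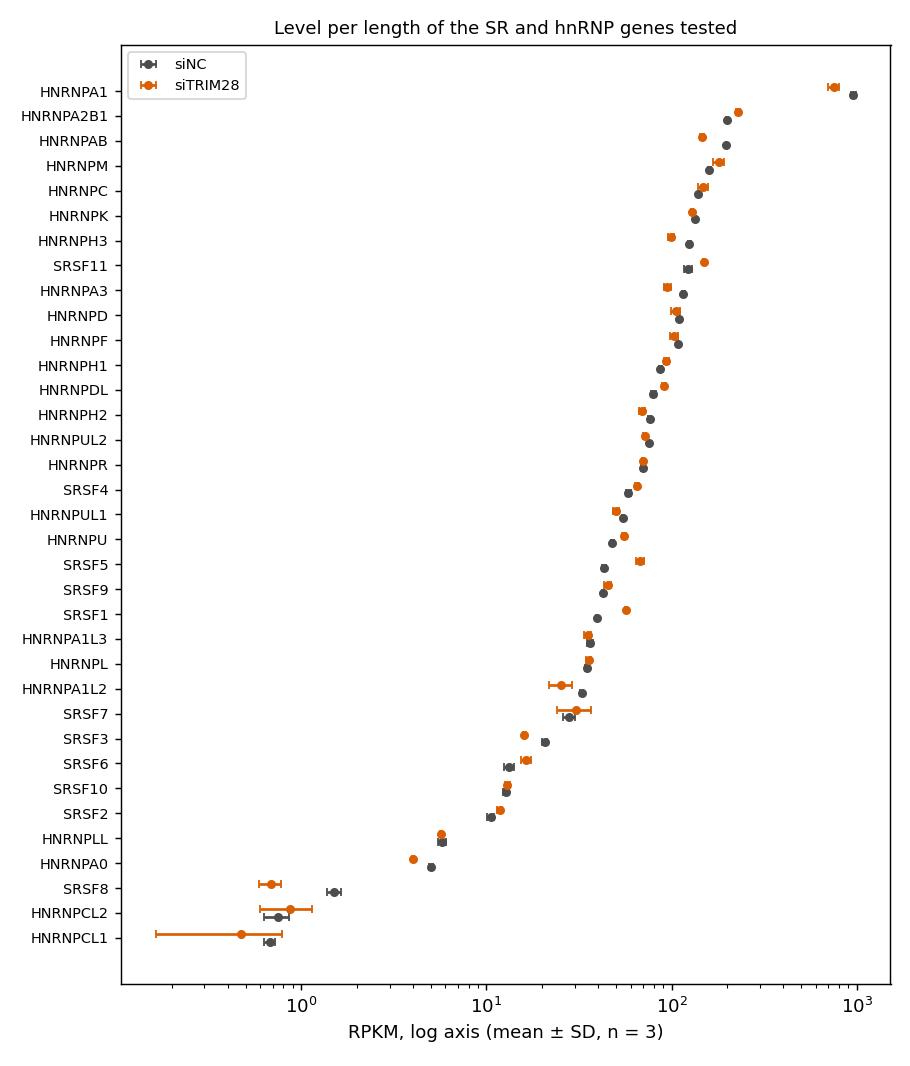
Mean RPKM with SD (n = 3) of the 35 genes tested, on a log axis, ordered by the siNC level, with siNC in grey and siTRIM28 in orange. HNRNPA1 lies far above the rest at 957 RPKM in siNC, and HNRNPCL1 in siTRIM28 has the widest error bar on this axis.

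The summed level of the SR genes was 0.265%, 0.265% and 0.274% of all counts in siNC and 0.325%, 0.322% and 0.321% in siTRIM28. The hnRNP genes summed to 1.88%, 1.90% and 1.90% in siNC and 1.77%, 1.83% and 1.81% in siTRIM28. Neither sum overlapped between the groups, and HNRNPA1 and SRSF11 weigh most in them. All 38 genes together took 2.14% to 2.17% of the counts in siNC and 2.10% to 2.15% in siTRIM28.

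Ratios of related genes within a library do not depend on how libraries are scaled, and were compared for 9 pairs of paralogs by an exact two-sided permutation test, which with 3 against 3 libraries cannot go below p = 0.1. The ratio of HNRNPA1 to HNRNPA2B1 counts was 2.52, 2.53 and 2.62 in siNC and 1.58, 1.82 and 1.84 in siTRIM28. It was lower in all 3, with siTRIM28 1 the lowest, a log2 difference of -0.55 (SE 0.0725, exact permutation p = 0.1). The ratio of SRSF1 to SRSF9 was 1.33, 1.38 and 1.34 in siNC and 1.78, 1.86 and 1.87 in siTRIM28, a log2 difference of 0.45 (SE 0.0277, exact permutation p = 0.1). The ratio of SRSF3 to SRSF7 was above 1 in siNC (1.27, 1.33 and 1.48) and 0.769, 1.11 and 1.11 in siTRIM28. Its log2 difference of -0.47 had an SE of 0.187, since siTRIM28 1 stood far from the other two.

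SRSF2 against SRSF8 shifted by 1.30 (SE 0.104) in log2 ratio, HNRNPH1 against HNRNPH2 by 0.24 (SE 0.0230), HNRNPD against HNRNPDL by -0.25 (SE 0.0385) and SRSF4 against SRSF6 by -0.16 (SE 0.0432). In all these 7 pairs the groups did not overlap, each with the smallest exact permutation p the design allows, 0.1 (0.129 adjusted over the 9 pairs). Among single genes tested 52% had groups that did not overlap, and no such share was computed for other pairs of genes. HNRNPL against HNRNPLL (0.05, exact permutation p = 0.4) and HNRNPUL1 against HNRNPUL2 (-0.06, exact permutation p = 0.3) overlapped. No pair could pass an adjusted threshold of 0.05 in this design.

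**Figure D4:**
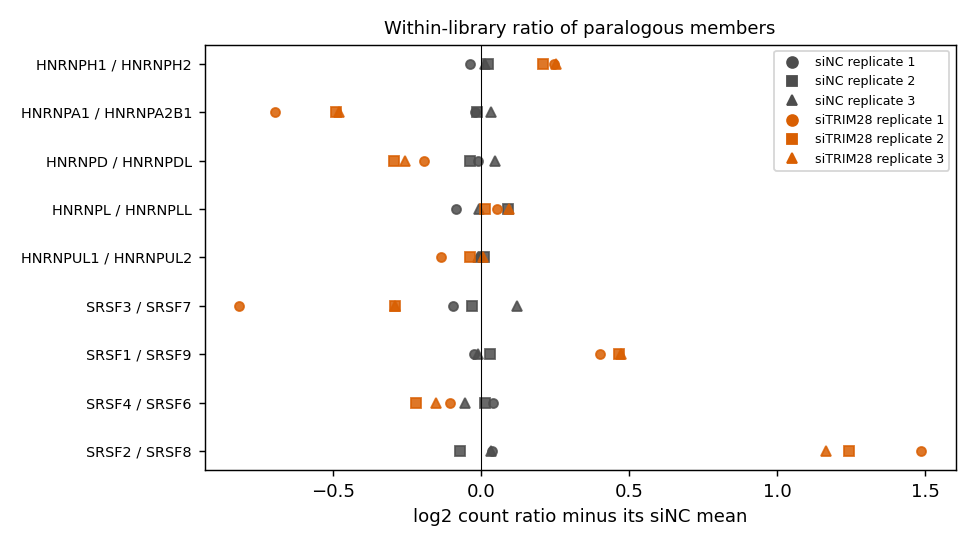
The log2 ratio of the counts of both genes of a pair in each library, minus the mean of its 3 siNC libraries, with siNC in grey, siTRIM28 in orange and a marker shape for each replicate. The siTRIM28 points stand clear of the siNC points in 7 of the 9 pairs, furthest for SRSF2 against SRSF8.

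Annotated transcripts of NMD class are a feature of the families that the choice of genes did not use. In GENCODE release 29 at least 1 such transcript was annotated for 25 of the 38 genes (65.8%), beside 35.6% of 19951 protein-coding genes. All 12 SR genes had such a transcript, and 13 of the 26 hnRNP genes did. By direction, it was annotated for 10 of the 10 genes that rose, 4 of the 10 that fell and 10 of the 15 with no call. HNRNPA0, HNRNPA1L2, HNRNPA3, HNRNPAB, HNRNPH2 and HNRNPH3 were the fallen genes without such a transcript. Of these HNRNPA0, HNRNPA1L2 and HNRNPH2 had only 1 annotated transcript each. The split by direction also follows family, since 5 SR genes rose and 2 fell. Retained-intron transcripts were annotated for 23 of the 38 (60.5%, beside 46.2%). The counts are per gene, so the level of an NMD or retained-intron transcript was not measured, and genes with more annotated transcripts have more chances to hold each class, with a median of 13 transcripts for the genes that rose and 6.5 for those that fell.

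The proteins that act on or beside the SR and hnRNP proteins were read from lists of 120 genes in the table, 116 of them tested. These lists too were chosen with earlier results of these data known. After silencing 29 rose and 35 fell (25.0% and 30.2%, beside the 21.3% and 20.5% of all genes), with a median log2 fold change of -0.03. Among genes with a mean of at least 1000 counts 27.9% rose and 31.8% fell, so both shares were near those of abundant genes. The counts of single lists below have the same background shares, and no list was tested as a set. Of 10 kinases and phosphatases that set the phosphorylation of SR proteins, 4 rose and 2 fell. SRPK1, the main cytoplasmic SR protein kinase, had 174, 167 and 163 CPM in siNC and 82.8, 84.3 and 84.2 CPM in siTRIM28. The siTRIM28 libraries were nearly equal and far below siNC (log2 fold change -1.002, adjusted p = 2.25e-08). The nuclear kinases CLK3 (0.46, adjusted p = 2.17e-04) and CLK1 (0.40, adjusted p = 2.81e-04), which release SR proteins from speckles, rose.

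Of 24 genes of the U1 and U2 particles and of 3′ splice site recognition, 12 fell and 4 rose, with a median log2 fold change of -0.18. SF3B5, a small subunit of the SF3b complex, fell from 18.1 to 7.52 CPM on average (log2 fold change -1.25, adjusted p = 1.72e-06), followed by the Sm protein gene SNRPD1 (-0.45) and SF3A1 (-0.43). Of 19 genes of the tri-snRNP and the catalytic spliceosome, 6 fell and 3 rose. PRPF19, the ubiquitin ligase of the activated spliceosome, had a log2 fold change of -0.67 (adjusted p = 3.75e-06), the helicase gene AQR of -0.37 and PRPF3 of 0.28, which was 0.15 with siNC 3 and siTRIM28 1 left out.

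Of 17 SR-related proteins, 5 rose and 4 fell. PNN, a speckle protein also found at desmosomes, had 1376, 1424 and 1458 CPM in siNC and 2141, 2207 and 2129 CPM in siTRIM28. The groups were far apart (log2 fold change 0.61, adjusted p = 1.42e-07). ACIN1 rose (0.46) and RNPS1 fell (-0.44), although their proteins share the ASAP complex at the exon junction. Of 16 hnRNP proteins under other symbols, 5 rose and 2 fell, led by PTBP3 (0.56), FUBP1 (0.51) and PTBP2 (0.43). The PTBP2 call was lost without siNC 2, siNC 3 or siTRIM28 2, and its log2 fold change ran from 0.31 to 0.53 with a library left out. Of 15 other splicing regulators, 5 rose and 4 fell, among them the muscleblind genes MBNL1 (-0.63) and MBNL2 (-0.56), both lower, and RBM25 (0.50), higher. Of 10 NMD factors, 3 rose and 4 fell, with SMG9 at 0.41, SMG6 at -0.33 and SMG8 at -0.31 (adjusted p = 0.0405). Of 5 transport genes only the export adaptor gene ALYREF was called (-0.17, adjusted p = 0.0353), and the calls of SMG8 and ALYREF were each lost in 9 of 16 alternative fits.

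**Figure D5:**
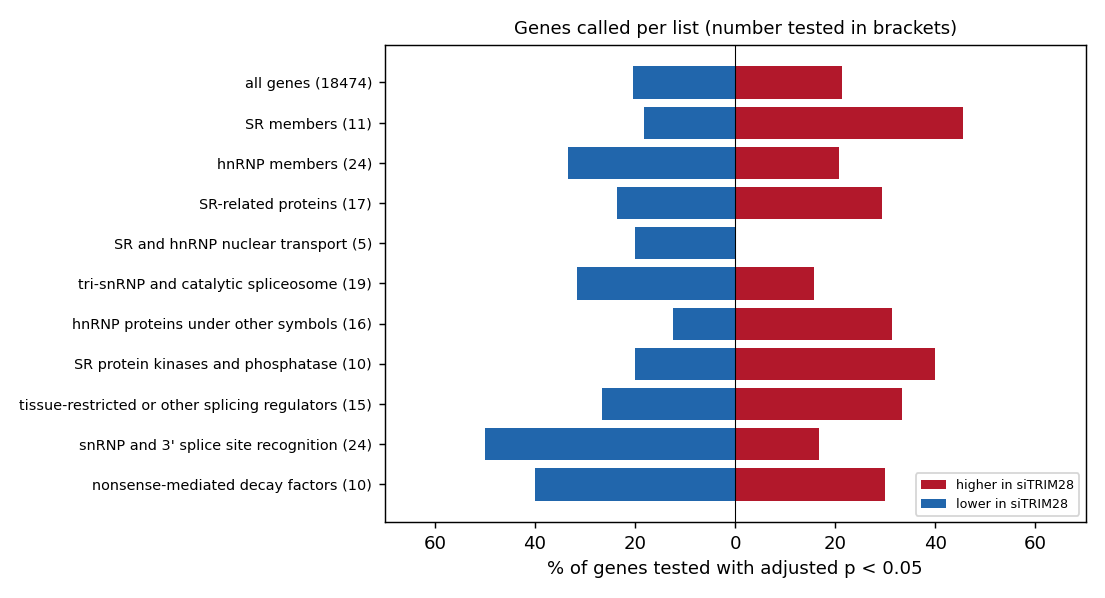
Percentage of the tested genes of each list that were called higher (red, to the right) or lower (blue, to the left) at an adjusted p under 0.05, with the number tested in brackets. Among all genes the bars are nearly equal, at 21.3% and 20.5%, while the SR genes lean to higher (45.5% against 18.2%) and the snRNP and 3′ splice site list to lower (50% against 16.7%).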

How the data were processed

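Libraries of poly(A)-selected RNA from 6 T24 cultures were made by the authors with a stranded kit. The submitters' processing notes name fastp 0.23.1, STAR 2.7.6a, featureCounts and the build GRCh38. The annotation release and strand setting are not given in the sources used here. The authors deposited unnormalised read counts per gene for 78932 genes, with gene lengths. A second table, of RPKM for genes the authors selected, was not used.

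The members and gene lists were chosen with earlier results of these data known. Genes reaching 10 counts in 3 or more of 6 libraries (18474) were fitted with edgeR 4.0.16 in R 4.3.3 (TMM scaling, quasi-likelihood test, group as the only term) and adjusted by the Benjamini-Hochberg method at 0.05. All log2 fold changes are siTRIM28 minus siNC. P-values rest on the spread between libraries of a group, moderated across genes by edgeR. If the libraries of a close pair were not independent cultures, these p-values would be too small. RPKM was computed from TMM-scaled CPM and the deposited lengths. Ratios of paralogs were compared by exact permutation.

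All called members are named, those past 0.3 in absolute log2 fold change in every library. Of the others, the 3 highest per length and the 3 nearest the threshold are given by library, and of each companion list the called genes with the 3 largest changes. The remaining members are given so that each is accounted for. The code was tested on simulated data with changes placed in well-expressed genes only. That setting and the recovery required to pass were loosened while the test was being written, so passing it is a weak check. Most changes of 0.3 on the log2 scale were recovered, few of 0.15 were, and some unchanged genes were called. Only 100 genes were changed by each amount among 18474, against 7723 called in the data, which makes the adjustment stricter in the simulation. Those recovery rates therefore do not carry over to these data. Calls and missed calls near 0.15 remain uncertain, since several were lost or gained in the alternatives. Alternatives were other scalings (RLE, upper quartile, total count), DESeq2 1.42.0, limma-voom 3.58.1, other count filters, a replicate block and leaving out each library. Same-numbered libraries did not deviate together (correlations 0.05, -0.01 and 0.04).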

Additional observations from a re-analysis of the deposited data

How the results depend on the processing

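Of the 20 called members, 15 kept their direction and their call in every one of the 17 alternatives, and the others lost the call in at least 1: HNRNPH1 in 11, HNRNPH2 in 8, HNRNPUL1 in 5, HNRNPM in 3 and SRSF4 in 2. The number called was 15 without siNC 1 (44.1% of members tested, beside 34.9% of all genes), 23 without siTRIM28 1 (65.7%, beside 45.0%) and 17 with DESeq2 (48.6%, beside 31.8%). These shares of all genes are not matched for abundance. Of members with no call, SRSF2, HNRNPC, HNRNPD and HNRNPUL2 passed the threshold in 1 to 3 alternatives. Leaving out siTRIM28 1 keeps the close pair siTRIM28 2 and 3, whose small spread makes calls easier. A call kept or gained in that fit therefore says little about how firm it is. With the replicate number as a block, 9 members rose and 10 fell, 4030 and 3880 over all genes. That block rests on a shared number alone, since not every library correlated best with its own number. The median of the SR genes was 0.19 with upper-quartile scaling and ran from 0.12 to 0.17 with a library left out. That of the hnRNP genes was -0.0194 with upper-quartile and -0.0344 with total-count scaling. With 0.58 required in absolute log2 fold change as well, 1757 genes were higher and 1387 lower, with 1 member each way. With close pairs summed, 18 companion genes were higher and 22 lower. Signs turned for genes near 0. Upper-quartile and total-count scaling moved the median of all genes from 0.0153 to 0.0493 and 0.0342, and HNRNPR and HNRNPLL moved with it. HNRNPR, at -0.00149, became 0.0327 with upper-quartile scaling, 0.0179 with total-count scaling and 0.0253 in the 4 libraries of both close pairs, and ran from -0.0251 without siNC 1 to 0.0163 without siNC 3. HNRNPLL became 0.00997 with upper-quartile scaling and ran from -0.0569 without siNC 2 to 0.00539 without siNC 1. SRSF7 became -0.11 in the 4 libraries and ran from -0.0632 without siTRIM28 1 to 0.197 without siTRIM28 3. The causes of the other changes were not tested. At this depth HNRNPCL3, HNRNPCL4 and SRSF12 were not testable, and HNRNPCL1 and HNRNPCL2 had wide errors.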

Other observations

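The table also holds 136 pseudogenes named after the members, 38 of which had enough counts to be tested. Of these 1 rose, 2 fell and 35 had no call, where 41.8% of all genes tested were called. Most of the 38 had low counts, so the lack of a call does not show that they did not differ. The pseudogenes were chosen for mention after their values were seen. HNRNPA1P16 (chr17:2306761-2307715) had 91, 100 and 84 counts in siNC and 175, 173 and 201 in siTRIM28, a log2 fold change of 1.11 (SE 0.123, edgeR adjusted p = 2.49e-05), while its parent gene HNRNPA1 fell. The siTRIM28 libraries were all higher. It lies inside the span of SRR, the serine racemase gene, on the same strand, and SRR had a log2 fold change of -0.01 (adjusted p = 0.901). HNRNPA3P1 had a log2 fold change of -0.83 (adjusted p = 0.0137) and HNRNPA3P5 of -0.68 (adjusted p = 0.00203), the direction of HNRNPA3. Reads of near-identical copies may be shared out unevenly, so these values are uncertain. The 74 pseudogenes of HNRNPA1 summed to between 1.66% and 2.30% of the counts of HNRNPA1, and adding the pseudogene counts to each parent left 10 members higher and 10 lower.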
